A study of Danio rerio with 12 samples.

Results

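A protein-coding gene whose annotated span contains the 3' end of a protein-coding gene on the opposite strand was found for 170 of the 400 rows with values in the deposited expression table. The rows were chosen by coordinates alone: nuclear, protein-coding, holding values, and with the 3' end of an opposite-strand coding gene of the same chromosome between their start and end. A list of 20 gene names was left out, of which 10 met the coordinate rule. Apart from the need to hold values, the coordinate rule uses no expression value, but the members and the list of names were chosen with earlier results of these data known. The data are 3'-tag RNA libraries of zebrafish (Danio rerio) cardiac tissue in 4 groups of 3 libraries, labelled as biological replicates. The groups were the transgenic line Tg(myl7:ATF3) at 4 months post-fertilization (mpf), its wild-type siblings at 4 mpf, Tg(myl7:ATF3) at 12 mpf and wild-type siblings at 12 mpf. The myl7 promoter drives the ATF3 transgene in heart muscle cells, so other cells of the tissue do not express it by design. The study addressed early and progressive effects of ATF3, with wild-type siblings as the controls of each age. The sources used here do not say whether a library came from 1 heart or several, or whether the line is 1 insertion.

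ATF3 is a transcription factor of the bZIP family that is induced by many kinds of cell stress and often represses its targets. Genes on opposite strands that end towards each other form convergent pairs, and where their untranslated ends overlap the same stretch of DNA is transcribed from both strands. In a 3'-tag library the reads come from the last part of a polyadenylated transcript, which in a convergent pair is the shared part. The labels describe libraries of the sense strand, but the sources used here do not say with which strand setting reads were counted. A row's value is therefore reported as reads counted to that row, and reads of the row's own transcript and of its opposite partner cannot be told apart where the spans overlap. For this reason each member is described beside the function of its partner. Unless stated, levels are FPKM (fragments divided by transcript length in kilobases and by a factor for the library), and differences are transgenic minus wild type on the log2(FPKM + 1) scale. This scale understates changes of rows that are low in all libraries. Where only some libraries of a group lack reads for a row, the difference can instead exceed that between the group means, as for cdadc1 and rfxap below.

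The 170 members had 181 opposite coding partners. Of the 321 nuclear coding rows with values, 180 (56.1%) met the coordinate rule, against 1585 (6.32%) of the 25098 nuclear coding rows that were not analysed here. A single partner was found for 162 members and several for 8. The partner extended beyond the member, as a convergent tail-to-tail pair, in 145 of the 181 pairs, and lay wholly inside the member in 36. The 3' ends of member and partner were a median of 1399 bases apart (range 9 to 82563), and 73 pairs were within 1000 bases. The overlap of the spans had a median of 1254 bases (range 10 to 19937). Members were spread over 25 chromosomes, with 85 on each strand. At the edge of the rule, rhoaa held the 3' end of tpk2 by 9 bases and grhpra that of tomm5 by 13 bases, with mean levels of 22.0 and 23.5 FPKM, while zc3h14 missed the end of eif2b2 by 1 base and psph that of nipsnap2 by 2 bases, with 7.31 and 703 FPKM.

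Levels were higher in members whose 3' ends lay close to that of the partner. The 73 members within 1000 bases had a median level of 42.9 FPKM, the 81 members over 1000 to 5000 bases had 15.8 FPKM and the 16 members farther apart had 17.8 FPKM. Read numbers differed less: the medians over the 12 libraries together were 532, 455 and 396.5 reads. The transcript lengths by which the reads were divided had medians of 2147, 5769 and 3784 bases, so the levels per length move with length as well as with distance, and neither part was tested. The 145 members in tail-to-tail pairs had a median of 27.6 FPKM and the 25 members that contain the whole partner had 17.7 FPKM. The other 141 nuclear coding rows without such an end had 17.6 FPKM, with a median length of 3290 bases against 4303 bases in all members. These are descriptions of 1 set of rows with values, and the sources used here do not say how that set was made.

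**Figure D1:**
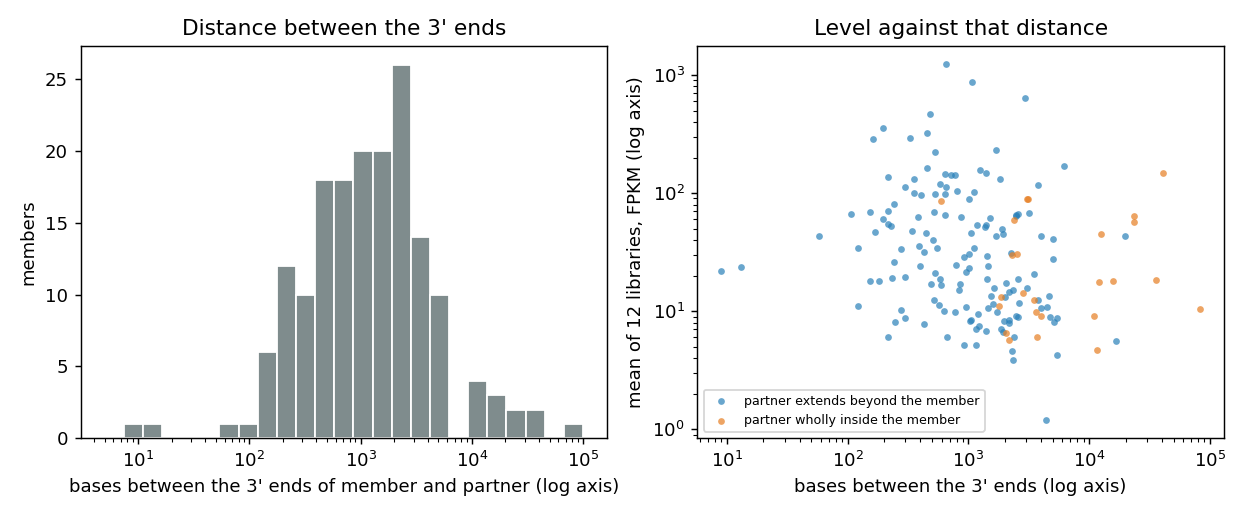
The left panel counts members by the number of bases between the 3' ends of member and partner (log axis), and the right panel plots each member's mean level over the 12 libraries in FPKM against that distance (both axes log), with partners wholly inside the member in orange and the rest in blue. Of the members, 154 lie at 5000 bases or less, and the highest level, 1245 FPKM, is that of cmbl at 649 bases.

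The total of reads counted to members, the reads of the median member and the share of ribosomal RNA rows overlapped between genotypes at each age. The share of ribosomal RNA rows did not overlap between the ages. Reads counted to members numbered 16305 to 22669 per library in transgenic and 16722 to 21417 in wild-type tissue at 4 mpf, and 15149 to 17693 in transgenic and 11543 to 15360 in wild-type tissue at 12 mpf. The median member had 34.5 to 54.5 reads in transgenic and 8.0 to 49.5 reads in wild-type libraries at 4 mpf, and 33.0 to 45.5 reads in transgenic and 30.0 to 41.5 reads in wild-type libraries at 12 mpf. Shares of ribosomal RNA rows are of the reads in the 400 rows with values, not of whole libraries, whose totals are not known here. They were 31.5% to 33.9% in transgenic and 18.03% to 41.4% in wild-type libraries at 12 mpf. At 4 mpf they were 84.9% to 90.4% in transgenic and 82.7% to 90.4% in wild-type libraries. Of 15 cardiomyocyte markers, 14 are in the table and 0 of them had values, so the labelled tissue could not be checked against them, and the transgene was not analysed here. Among the markers of other cell types, 4 had values, of which cldni (surface epithelium) and itih2 (liver) are members, and the markers of endothelium, epicardium, smooth muscle, thrombocytes and macrophages were not analysed here. In whole tissue, fewer cells of a type and less RNA per cell cannot be told apart.

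Members were often listed at 0 in the 4 mpf libraries and seldom in those of 12 mpf, and the other nuclear coding rows with values shared this. Counts of members at 0 were 2, 0 and 3 of 170 in the transgenic and 0, 2 and 1 in the wild-type libraries of 12 mpf, against 24, 31 and 32 in the transgenic and 76, 49 and 16 in the wild-type libraries of 4 mpf. The ages did not overlap, with means of 1.33 at 12 mpf and 38.0 at 4 mpf (exact permutation test, two-sided, 6 against 6 libraries, p = 0.00216, Benjamini-Hochberg adjusted p = 0.0130 over 6 tests), the smallest p the design allows. The share of members at 0 was 0% to 1.76% per library at 12 mpf and 9.41% to 44.7% at 4 mpf, against 0.662% to 3.97% and 17.2% to 55.6% of the other 151 nuclear coding rows, so the age difference is not particular to the members. Between genotypes at 4 mpf the transgenic mean of 29.0 and the wild-type mean of 47.0 did not differ beyond their spread (exact permutation test, p = 0.4, where 0.1 is the smallest possible with 3 libraries against 3). The wild-type libraries of 4 mpf ranged widely, and the lowest, replicate 3, had fewer zeros than any transgenic library of that age. Above 0 in all 12 libraries were 63 members. A zero is a limit and not an absence: 3 reads are taken as the floor, which covers counting error only. At the members' median length 1 read corresponds to 0.374 to 0.700 FPKM depending on the library.

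**Figure D2:**
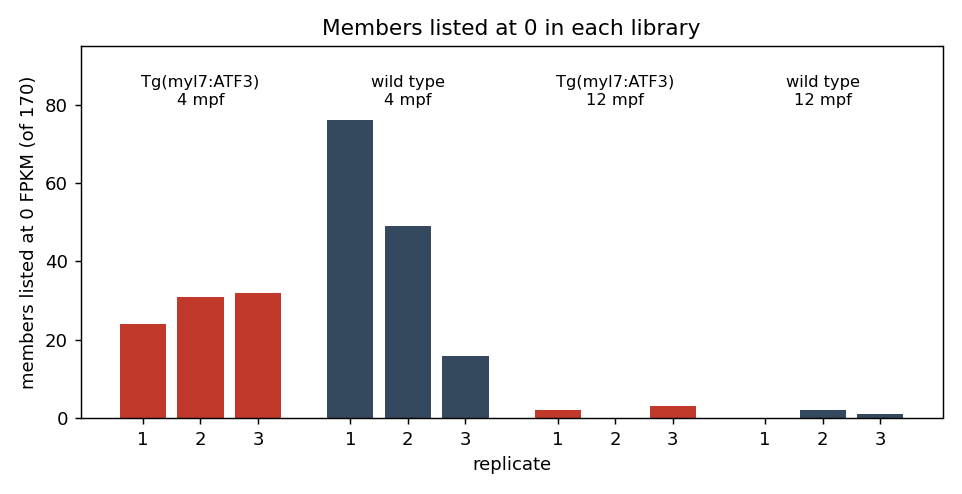
Bars give the number of the 170 members listed at 0 FPKM in each of the 12 libraries, grouped by genotype and age with the replicate number below. At 4 mpf the transgenic libraries lie between 24 and 32 and the wild-type libraries between 16 and 76, and at 12 mpf no library exceeds 3.

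Members, 170 of the 321 nuclear coding rows with values, held more than 50.0% of the reads in these rows in 11 of the 12 libraries. They also made up more than 50.0% of these rows, so a share above 50.0% is not in itself particular to the members. Their share was 61.6% ± 3.40 in transgenic and 58.2% ± 4.57 in wild-type tissue at 4 mpf (SD, n = 3 each; exact permutation test, p = 0.4), and 52.9% ± 0.839 in transgenic and 50.8% ± 3.81 in wild-type tissue at 12 mpf (SD, n = 3 each; exact permutation test, p = 0.6). Over both genotypes the share was 51.9% at 12 mpf and 59.9% at 4 mpf (exact permutation test, 6 against 6 libraries, p = 0.00649, adjusted p = 0.0195). The direction of that age difference depends on the denominator. Of the reads in all rows with values, which include the ribosomal RNA rows, the members' share was higher at 12 mpf by 4.81 percentage points. As a share of summed FPKM it was 3.23 points lower at 12 mpf and past no threshold.

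Grouped by what the opposite partner does, the members fell into 13 named classes and a group of 37 members whose partners have no class. Some rows left out by name lie opposite muscle, energy or ribosomal genes, so the class counts are not those of the coordinate rule alone. The largest named class was protein folding and degradation with 23 members, which held 23.3% of all member reads with 13.5% of the members. Signalling followed with 17 members and 14.4% of the reads, and mitochondria and energy metabolism with 15 members and 10.3%. Medians of the mean level over all libraries were 66.2 FPKM for the 11 members opposite genes of cytoskeleton, adhesion and matrix, 45.1 FPKM opposite mitochondrial and energy genes and 42.3 FPKM for the 12 opposite RNA processing genes. At the low end were the 7 members opposite immune and secreted proteins with 10.7 FPKM and the 8 opposite cell cycle and repair genes with 13.4 FPKM. Ranges overlapped throughout: members opposite folding and degradation genes ran from 3.89 to 1245 FPKM. The highest row by level was cmbl.

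**Figure D3:**
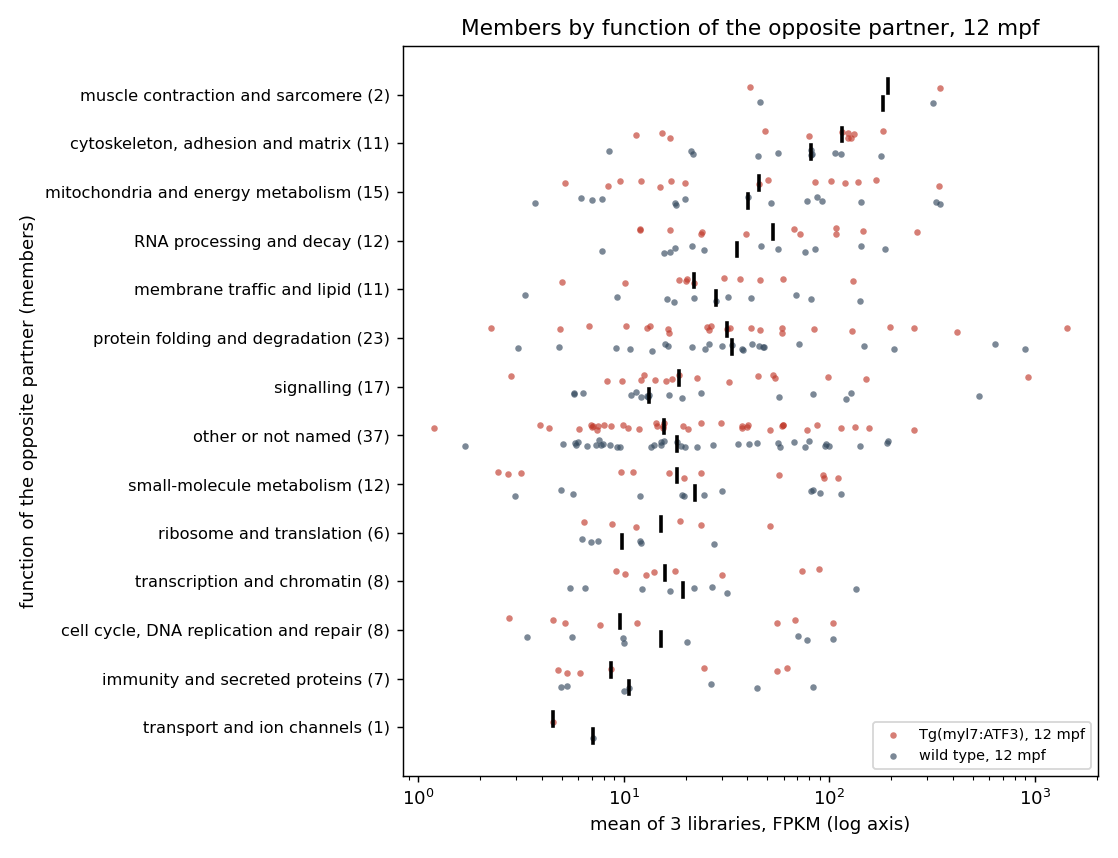
Each point is a member's mean level over 3 libraries at 12 mpf in FPKM (log axis), transgenic in red above wild type in blue, by function of the opposite partner with the number of members in brackets and a black bar at the median of the class. The highest point, cmbl, lies opposite a folding gene.

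Muscle and sarcomere partners were found for 2 members. The row of trmt13, a tRNA methyltransferase, lies at chromosome 22, 16311740 to 16317886 and ends 477 bases from the 3' end of lrrc39, which codes for a protein of the sarcomere's M-band. Its level was 500.4, 688 and 709.8 FPKM in transgenic and 856, 421 and 484 FPKM in wild-type tissue at 4 mpf, and 434, 295 and 312 FPKM in transgenic and 391, 309 and 263 FPKM in wild-type tissue at 12 mpf. The genotypes overlapped at both ages, with differences of 0.16 at 4 mpf (95% interval -0.60 to 0.92) and 0.11 at 12 mpf (95% interval -0.65 to 0.87). The other was aven, an inhibitor of apoptosis, opposite ryr3, a calcium release channel of the sarcoplasmic reticulum that is also a member. Reads counted to the aven row were 42.7% of those counted to either row of that pair, with a range over libraries of 0% to 100%. Levels of aven averaged 41.3 ± 14.6 FPKM in transgenic and 46.1 ± 18.1 FPKM in wild-type tissue at 12 mpf (SD, n = 3 each).

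Opposite genes of protein folding and degradation lay the row with the highest level. The row of cmbl, a hydrolase, ends 649 bases from cct5, a subunit of the chaperonin that folds actin and tubulin, and lies at chromosome 24, 16912248 to 16917086. At 4 mpf it had 1828, 1204 and 1323 FPKM in transgenic and 1465, 986 and 1157 FPKM in wild-type tissue. At 12 mpf the values were 1702, 1222 and 1377 FPKM in transgenic and 735, 656 and 1289.7 FPKM in wild-type tissue, where 1 wild-type library lay within the transgenic range and the others below it. The difference at 12 mpf was 0.73 (SE 0.33, limma adjusted p = 0.999). Opposite dnaja2b, an Hsp40 co-chaperone, si:dkey-266m15.7 had 281, 254 and 240.3 FPKM in transgenic and 203, 191 and 223 FPKM in wild-type tissue at 12 mpf, groups that did not overlap, with a difference of 0.33. CABZ01079480.1 contains the whole of ubxn4, which acts in degradation of proteins from the endoplasmic reticulum. It had 15.7, 5.62 and 7.999 FPKM in transgenic and 42.2, 45.6 and 48.2 FPKM in wild-type tissue at 4 mpf, without overlap and below wild type by the test's difference of -2.21, which missed the threshold (limma adjusted p = 0.184). Of the 23 members of this class, 14 had a difference above 0 and 9 below at 4 mpf, and 16 above and 7 below at 12 mpf. Of all 400 rows, 56.5% had a difference above 0 at 4 mpf and 53.5% at 12 mpf, and the counts of signs in this and the other classes were not tested against these shares.

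Among the 15 members opposite mitochondrial and energy genes, 1 had genotype groups apart in the same direction at both ages, as had 5 of all 170 members (2.94%) and 2.5% of all 400 rows. This was si:ch211-245h14.1 at chromosome 20, 38517441 to 38525467, 1685 bases from the end of coq8aa, an atypical kinase needed for coenzyme Q synthesis. It had 116, 129.7 and 212 FPKM in transgenic and 261, 295 and 262 FPKM in wild-type tissue at 4 mpf, and 94.5, 178 and 237 FPKM in transgenic and 355, 314 and 321 FPKM in wild-type tissue at 12 mpf. Every transgenic library lay below every wild-type library of its age, and the differences of -0.88 (SE 0.41, limma adjusted p = 0.266) and -1.05 (SE 0.41, adjusted p = 0.999) missed the threshold. The coq8aa row itself, also a member, did not have lower values in the transgenic libraries, with 58.8 ± 25.3 FPKM in transgenic and 40.5 ± 11.2 FPKM in wild-type tissue at 12 mpf (SD, n = 3 each). Opposite tomm20b, an import receptor of the outer mitochondrial membrane, the row of the RNA-binding protein gene rbm34 had 341 ± 79.5 FPKM in transgenic and 347 ± 7.65 FPKM in wild-type tissue at 12 mpf (SD, n = 3 each). The condensin gene ncaph2 contains the whole of sco2, which delivers copper to cytochrome c oxidase. It was listed at 0, 0 and 7.86 FPKM in transgenic and 44.3, 21.7 and 5.33 FPKM in wild-type tissue at 4 mpf, groups that overlapped, with a difference of -3.17 (SE 1.07, limma adjusted p = 0.177).

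Signalling partners included stress and growth regulators. The row of armc2, known in mammals for sperm flagella, lies at chromosome 20, 32228210 to 32270866 opposite sesn1, a stress-induced sestrin that restrains growth signalling, with the 3' ends 2947 bases apart. It had 622, 666 and 651 FPKM in transgenic and 257, 508 and 535 FPKM in wild-type tissue at 4 mpf, and 1030.0, 1071 and 696 FPKM in transgenic and 519, 579.5 and 504 FPKM in wild-type tissue at 12 mpf. Every transgenic library was above every wild-type library of its age. The differences were 0.65 at 4 mpf (SE 0.33, limma adjusted p = 0.363) and 0.78 at 12 mpf (SE 0.33, adjusted p = 0.999), and 0.71 over both ages (adjusted p = 0.234), none of which passed. The proteasome subunit row psma6b lies opposite nfkbiaa, the inhibitor of NF-κB, and had 59.9, 45.6 and 55.04 FPKM in transgenic and 75.5, 213 and 72.2 FPKM in wild-type tissue at 12 mpf, without overlap and with a difference of -0.97 (limma adjusted p = 0.999). At 4 mpf the same row had 180.4, 202 and 241 FPKM in transgenic and 189, 37.3 and 204 FPKM in wild-type tissue, with overlapping groups. Opposite smad9, an effector of BMP signalling, the RFX complex gene rfxap had 87.7, 46.9 and 187 FPKM in transgenic and 0, 11.3 and 36.8 FPKM in wild-type tissue at 4 mpf, where the transgenic libraries were all above the wild-type ones, and a difference of 3.58 (SE 1.17, limma adjusted p = 0.177). The rccd1 row, opposite the calcium-binding protein gene cib1, overlapped between genotypes at both ages. Of the 17 members of this class, 13 had a difference above 0 at 4 mpf and 12 at 12 mpf.

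Members opposite genes of the cytoskeleton, adhesion and matrix had the highest median among the classes of more than 2 members. The ubiquitin ligase row cblb, opposite the adhesion molecule alcama, was even between genotypes, with 184 ± 18.6 FPKM in transgenic and 178 ± 10.8 FPKM in wild-type tissue at 12 mpf (SD, n = 3 each). The claudin row cldni at chromosome 3, 30921246 to 30927002 ends 638 bases from coro1a, an actin regulator of leukocytes. It had 380.3, 112 and 357 FPKM in transgenic and 41.03, 65.7 and 81.5 FPKM in wild-type tissue at 4 mpf, and 120.3, 146 and 106 FPKM in transgenic and 78.4, 103 and 138 FPKM in wild-type tissue at 12 mpf. The groups were apart at 4 mpf, where the difference of 2.02 (SE 0.54) missed the threshold (limma adjusted p = 0.0752), and overlapped at 12 mpf. As cldni is 1 of 4 listed markers of surface epithelium and the other 3 were not analysed here, the part of such cells in its values was not tested. The partner coro1a is a listed marker of macrophages and neutrophils, and the part of its reads in these values was not tested either. The row of bcl2l16, a Bcl-2 family gene that contains the tubulin gene tubb2b, had 139, 136 and 55.2 FPKM in transgenic and 37.1, 29.8 and 50.6 FPKM in wild-type tissue at 4 mpf, and 117, 125 and 129 FPKM in transgenic and 49.8, 114 and 80.3 FPKM in wild-type tissue at 12 mpf. Its groups were apart in the same direction at both ages, and the difference over both ages was 1.03 (SE 0.39, limma adjusted p = 0.321). A far wider spread was seen in trdmt1, an RNA methyltransferase gene that contains the intermediate filament gene vim, with 5.77, 41.3 and 149.9 FPKM in transgenic and 55.9, 680.4 and 257 FPKM in wild-type tissue at 4 mpf. The secreted phosphoprotein row spp2, opposite the lamellipodium gene raph1b, had 186, 134 and 74.8 FPKM in transgenic and 41.5, 40.5 and 53.1 FPKM in wild-type tissue at 12 mpf, without overlap and with a difference of 1.44 (limma adjusted p = 0.999). It was at or near 0 in 2 transgenic libraries and 1 wild-type library of 4 mpf.

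By the classing of symbols, RNA processing genes were the partners of 12 members. These include oard1, whose partner apobec2b was placed here by its symbol stem alone. The proteasome activator row psme2 shares its tail with lsm5, a subunit of the ring that acts in splicing and mRNA decay, and both are members. It had 328, 222 and 248 FPKM in transgenic and 167, 193 and 199 FPKM in wild-type tissue at 12 mpf, without overlap and with a difference of 0.49 (limma adjusted p = 0.999). At 4 mpf its values were 183, 791 and 441 FPKM in transgenic and 386, 398 and 334 FPKM in wild-type tissue, with the transgenic libraries on both sides of the wild-type ones. The row BX072577.1, opposite the splicing factor gene rbm22, averaged 108 ± 10.5 FPKM in transgenic and 143 ± 36.5 FPKM in wild-type tissue at 12 mpf (SD, n = 3 each). The row of aig1, opposite the tRNA deaminase subunit gene adat2, was listed at 39.00, 15.4 and 0 FPKM in the transgenic libraries of 4 mpf, against 0 in each of the 3 wild-type libraries. Ribosome and translation genes stood opposite 6 members. The aldo-keto reductase row akr7a3, opposite the ribosome assembly gene mrto4, had separate groups at 12 mpf, with 27.9, 13.4 and 15.1 FPKM in transgenic and 5.48, 4.41 and 8.89 FPKM in wild-type tissue. In this class 5 of 6 differences were above 0 at each age. The threshold was passed by 0 of them, where 3.25% of all 400 rows passed at 4 mpf and 0.0% at 12 mpf.

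Transcription and chromatin genes stood opposite 8 members. The glycosyltransferase row galnt7, whose tail meets that of the chromatin protein gene hmgb2a, had 42.8, 106 and 118 FPKM in transgenic and 154, 152 and 99.3 FPKM in wild-type tissue at 12 mpf and a difference of -0.70, and at 4 mpf 217, 211 and 178 FPKM in transgenic and 146, 179.6 and 158 FPKM in wild-type tissue with a difference of 0.32. Groups overlapped at both ages. The row si:ch211-131k2.2, opposite the histone acetyltransferase gene kat7b, had 102, 49.4 and 69.2 FPKM in transgenic and 16.6, 26.9 and 22.4 FPKM in wild-type tissue at 12 mpf, with no overlap and a difference of 1.66 (limma adjusted p = 0.999). The kinesin row kifc3 lies opposite wt1b, a transcription factor of the epicardium. It was listed at 10.2, 4.02 and 0 FPKM in transgenic and 0, 0 and 0 FPKM in wild-type libraries at 4 mpf, and at 14.2, 8.505 and 19.5 FPKM in transgenic and 5.87, 8.02 and 2.504 FPKM in wild-type libraries at 12 mpf, where the groups were apart. Cell cycle and repair genes were the partners of 8 members, led by tubgcp4 of the gamma-tubulin complex, opposite tp53bp1, and by the helicase row dhx32a, opposite bccip. Their means at 12 mpf were 55.8 ± 20.5 and 104 ± 12.6 FPKM in transgenic tissue, against 77.9 ± 24.4 and 70.4 ± 22.1 FPKM in wild-type tissue (SD, n = 3 each). In 7 of these 8 members the difference at 12 mpf was below 0, where 53.5% of all rows had a difference above 0. No member of the class had separate groups at either age. Of all rows, 12.0% had separate groups at 4 mpf, and 11.5% higher and 8.5% lower in transgenic tissue at 12 mpf. The class of 8 members was not tested against these shares.

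Opposite genes of membrane traffic and lipid metabolism, the highest of 11 rows was si:ch211-175f11.5, whose partner lpin1 codes for a phosphatidate phosphatase. It had 139.6, 170.1 and 83.2 FPKM in transgenic and 112, 133 and 177 FPKM in wild-type tissue at 12 mpf, with overlapping groups. The rows rmi2, opposite litaf, and msl1b, opposite the ESCRT gene chmp2a, had differences between -0.19 and 0.06 at both ages. Small-molecule metabolism genes stood opposite 12 members. The aldose reductase row akr1b1.1, opposite its neighbour akr1b1.2, averaged 93.9 ± 3.37 FPKM in transgenic and 81.6 ± 20.8 FPKM in wild-type tissue at 12 mpf (SD, n = 3 each), and reads of such similar neighbours may be split between them by the counting. The chromatin remodeller row ino80 contains chac1, an enzyme that degrades glutathione and is induced in the unfolded protein response. It had 59.8, 57.1 and 54.2 FPKM in transgenic and 79.8, 90.5 and 173 FPKM in wild-type tissue at 12 mpf, where every transgenic library was below every wild-type library, and a difference of -0.91 (SE 0.57, limma adjusted p = 0.999). At 4 mpf the groups overlapped, with 92.9, 45.97 and 46.9 FPKM in transgenic and 93.6, 196 and 71.5 FPKM in wild-type tissue. The death-effector domain row dedd, which contains the glucuronosyltransferase gene ugt5e1, had 3.94, 3.47 and 2.13 FPKM in transgenic and 10.5, 13.01 and 12.4 FPKM in wild-type tissue at 12 mpf. The transgenic libraries were again all lower, with a difference of -1.66 (limma adjusted p = 0.999). The interaction of genotype and age for dedd ranged from -5.48 to -1.62 over the fits run, a lower difference at 12 than at 4 mpf. It missed the threshold in the main fit and passed in 1 of 18 alternatives. The only member with a transport partner, parietopsin opposite cax2, averaged 4.55 ± 2.32 FPKM in transgenic and 7.12 ± 2.52 FPKM in wild-type tissue at 12 mpf (SD, n = 3 each).

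Immune and secreted proteins stood opposite 7 members, 6 of which had a difference above 0 at 4 mpf, with a class median of 2.34 and 0 past the threshold. Of all 400 rows, 56.5% had a difference above 0 at that age and 3.25% passed. The class medians of the group means at 4 mpf, 20.1 FPKM in transgenic and 12.1 FPKM in wild-type tissue, lay closer together than that median difference. The ubiquitin ligase row trim3a at chromosome 15, 32297441 to 32353828 ends 1942 bases from c4, a complement component that is a member as well. It had 97.9, 67.1 and 65.1 FPKM in transgenic and 26.3, 10.5 and 4.13 FPKM in wild-type tissue at 4 mpf, and 49.3, 78.8 and 59.2 FPKM in transgenic and 18.8, 24.1 and 37.1 FPKM in wild-type tissue at 12 mpf. All transgenic libraries were above all wild-type libraries of the same age. The difference was 2.70 at 4 mpf (SE 0.82, limma adjusted p = 0.122), 1.22 at 12 mpf (SE 0.82, adjusted p = 0.999) and 1.96 over both ages (adjusted p = 0.163). The fin-ray fibre gene and1, opposite the adiponectin gene adipoqa, was listed at 8.16, 16.5 and 0 FPKM in transgenic and 0, 0 and 0 FPKM in wild-type libraries at 4 mpf, and at 22.8, 30.95 and 20.1 FPKM in transgenic and 7.93, 4.599 and 17.4 FPKM in wild-type libraries at 12 mpf, where the groups were apart. The row of tma7, a translation-associated gene opposite the nuclease gene dnase1l4.1, varied widely, with 0, 14.4 and 0 FPKM in transgenic and 5.24, 148 and 96.8 FPKM in wild-type libraries at 12 mpf, and 335, 177 and 380.0 FPKM in transgenic and 1.37, 218 and 333 FPKM in wild-type libraries at 4 mpf. Among the 37 members whose partner has no class, faub, a ribosomal protein fusion gene, had the highest mean with 357 FPKM, and its 4 mpf values ran from 12.3 FPKM in 1 transgenic library to 1065 FPKM in 1 wild-type library.

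In 11 pairs both rows had values, and both were members in each. The division of reads between the rows of a pair varied widely from library to library. For trim3a and c4, 88.3% of the reads of the pair were counted to trim3a (61.6% to 100% over libraries), and for lsm5 and psme2, 28.5% were counted to lsm5 (3.59% to 58.9%). For coq8aa and si:ch211-245h14.1, 17.2% of the reads were counted to coq8aa (0% to 50.2%). At 4 mpf both rows of a pair had differences of the same sign in 6 of 11 pairs. In the pair of cab39l, a scaffold of the LKB1 kinase, and cdadc1, a deaminase-like gene, whose ends lie 277 bases apart, the differences at 4 mpf were 3.12 and 3.99. The cab39l values were 9.28, 18.2 and 15.01 FPKM in transgenic and 0, 0 and 3.79 FPKM in wild-type tissue, without overlap, and those of cdadc1 were 55.8, 67.5 and 86.98 FPKM in transgenic and 0, 0 and 83.4 FPKM in wild-type tissue, where 1 wild-type library was as high as the transgenic ones. In the pair of smad9 and rfxap the differences at 4 mpf had opposite signs, -1.98 and 3.58. Rows of 1 pair share a locus and are not independent.

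Between transgenic and wild-type tissue at 4 mpf, 2 members passed the threshold of 0.05 for the Benjamini-Hochberg adjusted p of limma over all 400 rows, angel1 and oard1, and both were higher in transgenic tissue. This is 1.18% of the members, where 3.25% of all rows passed. The row of angel1, a gene of the exonuclease-like family that binds the cap-binding factor, lies on the plus strand of chromosome 17, 52612866 to 52643968 and contains the 3' ends of fam98b and of spred1, an inhibitor of Ras signalling, whose end lies 4476 bases from that of angel1. It had 9.304, 7.06 and 37.9 FPKM in transgenic tissue, from 22, 19 and 75 reads, against 0 reads in each of the 3 wild-type libraries. The transgenic mean was 13.8-fold a floor of 3 reads per wild-type library, and 6.25-fold without the highest transgenic library, replicate 3. That floor covers counting error only. The 3 wild-type libraries had 76, 49 and 16 of the 170 members at 0, so these folds are no lower bound on the difference between the tissues. The fitted difference was 3.89 (SE 0.79, limma adjusted p = 0.0169). At 12 mpf the same row had 13.3, 9.91 and 14.5 FPKM in transgenic and 8.74, 9.06 and 21.5 FPKM in wild-type tissue, with overlapping groups and a difference of 0.04 (95% interval -1.68 to 1.77). The test of the change of effect between ages gave -3.84 (SE 1.12, adjusted p = 0.253).

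The row of oard1, an enzyme that removes ADP-ribose from proteins, lies on the minus strand of chromosome 23, 19220381 to 19225709, with its end 646 bases from that of apobec2b, a deaminase-family gene known for its expression in muscle. It had 85.7, 139 and 201 FPKM in transgenic tissue, from 123, 227 and 241 reads, against 22.6, 39.8 and 29.8 FPKM in wild-type tissue, from 34, 58 and 37 reads. The means were 142 ± 57.6 FPKM in transgenic and 30.7 ± 8.64 FPKM in wild-type tissue (SD, n = 3 each), and every transgenic library was above every wild-type one. The difference was 2.12 (SE 0.52, limma adjusted p = 0.0471). At 12 mpf oard1 had 114, 169 and 155 FPKM in transgenic and 72.8, 59.7 and 97.2 FPKM in wild-type tissue, again without overlap, with a difference of 0.93 that did not pass (95% interval -0.20 to 2.06, adjusted p = 0.999). Over both ages the difference was 1.53 (SE 0.37, adjusted p = 0.077), and that between the ages was -1.19 (adjusted p = 0.827). Both calls depend on the fit: that of angel1 was lost under 4 of 19 alternatives (adjusted p up to 0.356) and that of oard1 under 14 of 19 (up to 0.417), among them the fit to the 6 libraries of 4 mpf alone. The 4 groups share 1 estimate of the spread per row in this fit. The members' median SD on the log2 scale was 1.12 in transgenic and 1.95 in wild-type tissue at 4 mpf. At 12 mpf it was 0.43 in transgenic and 0.51 in wild-type tissue. The errors given for 12 mpf are therefore too large for many rows. Over the alternatives the limma adjusted p at 12 mpf fell as low as 0.116 for oard1, armc2 and dedd, which still did not pass. Conversely, the errors given for 4 mpf are too small for many rows, and on simulated data the fit made more false calls at 4 mpf than the threshold allows. The count of 2 members became 14 without wild-type replicate 3 of 4 mpf. It became 5 without transgenic replicate 3 and 4 without wild-type replicate 2 of that age. Without any 1 of the 12 mpf libraries it was 1. Among all rows, the 13 calls of the main fit became 37, 18, 18 and 9 in these fits, in the same order. The counts thus moved in the same direction in all rows, and a gain particular to the members was not tested.

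**Figure D4:**
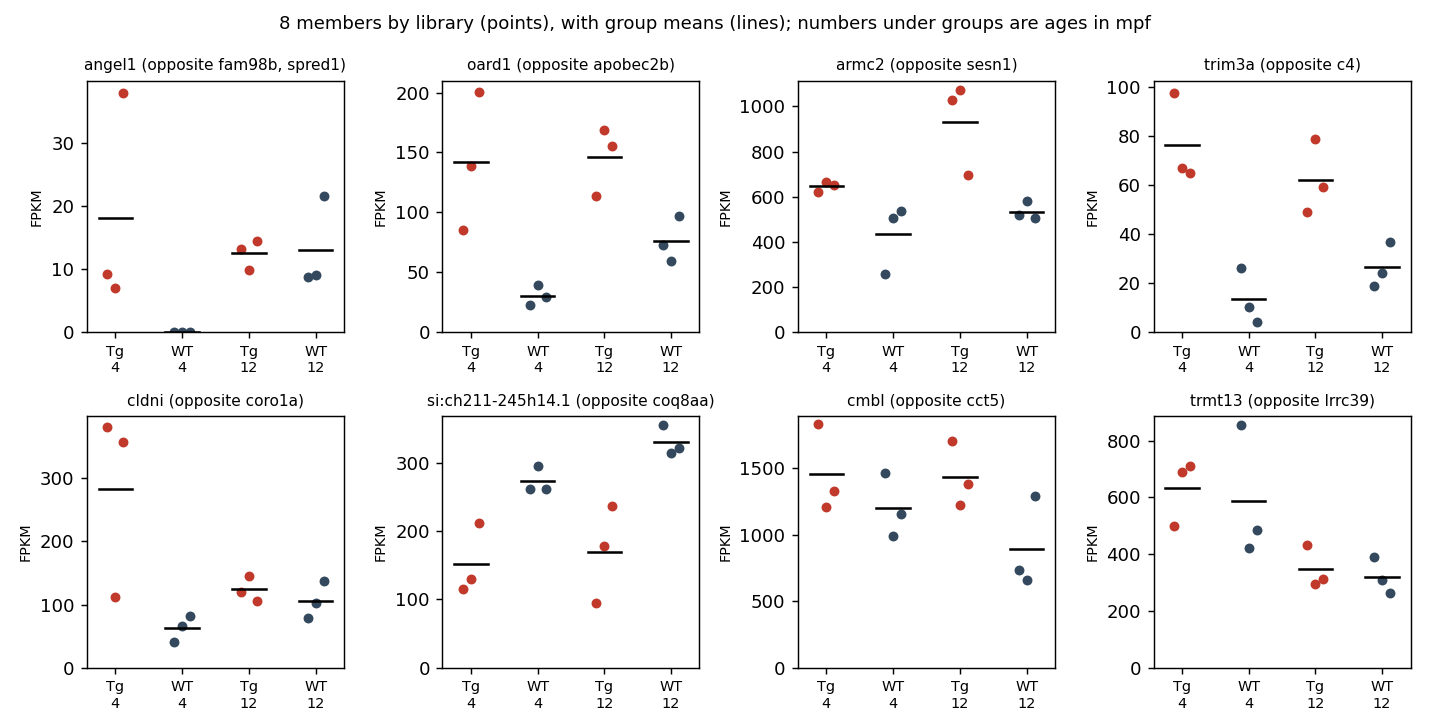
Panels show 8 members with the level of each library in FPKM (points, transgenic red and wild type blue) and the mean of each group (lines), for 4 and 12 mpf, with the opposite partner in the title. The points of oard1, trim3a and armc2 lie higher in transgenic than in wild-type tissue at both ages and those of si:ch211-245h14.1 lower, while angel1 is at 0 only in the 3 wild-type libraries of 4 mpf.

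Before adjustment, 22 members had a p under 0.05 at 4 mpf (12.9%), the 2 calls among them, where 18.5% of all rows did. The genotype groups did not overlap for 18 members, 13 higher and 5 lower in transgenic tissue, where the groups were apart in 12.0% of all rows, 7.25% higher and 4.75% lower. These shares are near or below those of all rows. The median difference was 0.31 over the members, with 105 above 0 and 65 below, and 0.25 over all rows. Next to the 2 calls by p came cldni, cab39l, trim3a and rfxap, then ncaph2 and CABZ01079480.1 with differences below 0, then epyc and cdadc1. The cartilage proteoglycan row epyc had 15.7, 10.2 and 26.1 FPKM in transgenic and 0, 6.53 and 3.83 FPKM in wild-type tissue, with separate groups and a difference of 2.37 (limma adjusted p = 0.190).

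At 12 mpf, 0 members passed with limma, where 0.0% of all rows did, and limma with voom weights on recovered reads also gave 0. The spread shared by the groups makes the errors at this age too large for many rows, so 0 calls do not show equal genotypes. At an unadjusted p under 0.05 there were 4 members, where 3.25% of all rows were under it: si:ch211-245h14.1 and tma7 with differences below 0, and armc2 and cmbl above. Groups were apart for 32 members, 19 higher and 13 lower in transgenic tissue, where 20% of all rows were apart, 11.5% higher and 8.5% lower. The median difference was 0.12 over the members and 0.07 over all rows, and the central 50.0% of the members lay between -0.34 and 0.49, against -0.46 and 1.42 at 4 mpf. The pancreatic elastase row cela1.6, opposite an unnamed gene, had 16.9, 22.4 and 7.398 FPKM in transgenic and 11.1, 0 and 4.19 FPKM in wild-type libraries at 12 mpf, with overlapping groups and a difference of 1.94 (limma adjusted p = 0.999).

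**Figure D5:**
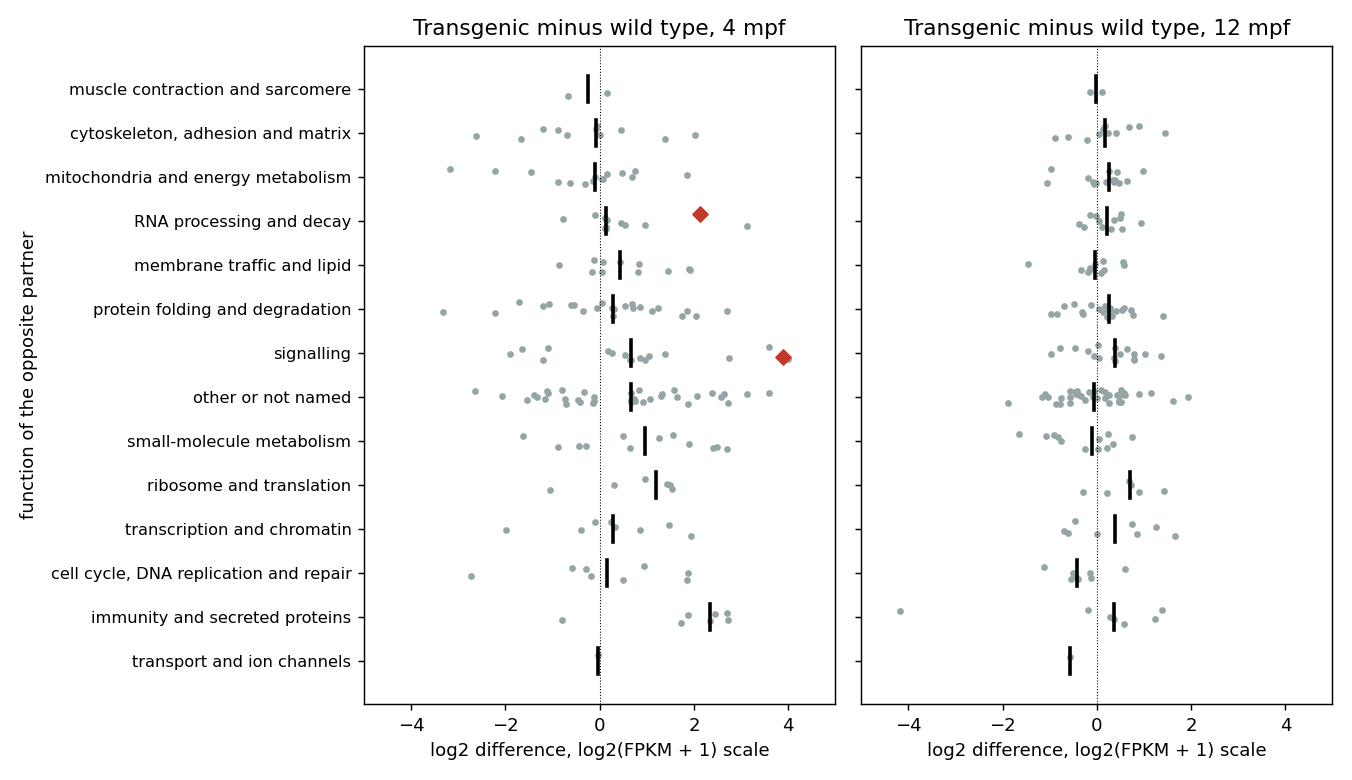
Each point is a member's difference, transgenic minus wild type, on the log2(FPKM + 1) scale at 4 mpf (left) and 12 mpf (right), by function of the opposite partner, with a bar at the class median and red diamonds for the 2 members past the threshold. Points spread more widely at 4 mpf, and the lowest point at 12 mpf is tma7 at -4.17.

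Over both ages 0 members passed with limma, where 1.0% of all rows did. At an unadjusted p under 0.05 there were 14 members, where 10.8% of all rows were under it. Limma voom called 1, a count given without its share of all rows. The smallest p-values belonged to oard1, angel1, trim3a, si:ch211-245h14.1 and armc2. The effects at both ages differed for 0 members (interaction in limma, where 0.5% of all rows passed), with 8 at an unadjusted p under 0.05, where 8.25% of all rows were, and 0 by limma voom. Leading by p were angel1, cab39l and ncaph2, with interactions of -3.84, -3.59 and 4.16 (adjusted p = 0.253, 0.418 and 0.471). A negative interaction means that the difference between genotypes was lower at 12 than at 4 mpf.

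Between the ages in wild-type tissue, 1 member passed, angel1, where 4.0% of all rows did. It had 8.74, 9.06 and 21.5 FPKM at 12 mpf, against 0 reads in each library at 4 mpf, and a difference of 3.70 (SE 0.79, limma adjusted p = 0.0204). The call was lost under 6 of 18 alternatives. Among them were leaving out wild-type replicate 1 of 4 mpf and, in turn, each 12 mpf library of wild-type tissue. Without wild-type replicate 3 of 4 mpf, 19 members passed. The share of all rows that passed in that fit is not given here, and the 4.0% is that of the main fit. The same 3 wild-type libraries at 0 reads also underlie the call of angel1 between genotypes at 4 mpf, so the 2 calls are not independent. In these libraries 76, 49 and 16 of the 170 members were listed at 0. Groups of libraries were apart between ages in wild-type tissue for 38 members, 23 higher and 15 lower at 12 mpf, where 24.2% of all rows were apart, 16.8% higher and 7.5% lower. At an unadjusted p under 0.05 there were 28 members, where 23.0% of all rows were under it. In transgenic tissue 0 members passed with limma, where 3.5% of all rows did. Before adjustment 18 were under 0.05, where 19.0% of all rows were. Limma voom called 3, a count given without its share of all rows. Groups were apart for 53 members there, 30 higher and 23 lower at 12 mpf, where 33.5% of all rows were apart, 22.2% higher and 11.2% lower. The median age difference was 0.76 over the members and 1.03 over all rows in wild-type tissue, and 0.48 and 0.64 in transgenic tissue. These differences moved with the number of members listed at 0 and with the share of ribosomal RNA reads given above, whose part in them was not tested.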

How the data were processed

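RNA of 12 zebrafish cardiac libraries, 3 for each genotype and age, was prepared with the QuantSeq 3' FWD kit and sequenced single-end, per the labels' protocols. The authors deposited FPKM values, 1 column per library, per the file headers. The submitters' processing notes name RSEM, STAR, DESeq2, Trim Galore and the build GRCz11, taken here as that of the coordinates. The sources used here give no versions, annotation release, scaling or strand setting, and do not say how the 400 rows with values were chosen. Of the columns, 0 were left unmatched to a library.

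Members were found from coordinates, biotype and strand. Partners were classed by the stem of their symbol (53), by hand from the symbol (80) or by hand against the stem (8), and 40 were not classed. The identifiers of 162 of 170 members and 175 of 181 partners matched the gene name table. Members, classes and lists were chosen with earlier results of these data known. No sequence is shown, since no genome of this build was used here.

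Values were tested as log2(FPKM + 1) with limma 3.58.1 in R 4.3.3, with 1 mean per group, all 12 libraries, eBayes with trend and robust, and Benjamini-Hochberg adjustment over the 400 rows, two-sided, for each of 6 contrasts. All 400 rows and all 170 members passed a filter of 1 FPKM in 3 libraries. The fit was tested on simulated data, where false calls exceeded the threshold's share at 4 mpf and, by less, over both ages, but not at 12 mpf. The simulated spread was capped and was the same for both genotypes of an age. In the real libraries of 4 mpf wild-type tissue varied more than transgenic tissue, so the simulation cannot give the rate of false calls there. Values per library were compared with exact permutation tests. Where nothing more is said of the replicates than that they are biological, p-values measure the spread between these libraries. Reads were recovered from the FPKM values with a factor per library from 14 mitochondrial rows, and all 400 rows gave whole reads within 0.0001 reads. No molecular identifiers are named, so floors cover counting error only. Other steps used scipy 1.17.1, pandas 2.3.3, numpy 2.4.6 and, for figures, matplotlib 3.10.9, in Python 3.11.15. Named are members past the threshold, the 10 with the smallest p for each genotype contrast and the interaction, the 3 highest and the largest differences of each class, members whose partner has values and those at the edge of the rule; some members are not reported here. The multi-partner rows and prg4a and prg4b in the closing section were chosen after their values were seen. Alternatives were another pseudocount (5 FPKM), no filter, median-of-ratios scaling, fewer libraries, array weights, voom on recovered reads, a replicate block, the left-out rows put back, other denominators and leaving out each library.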

Additional observations from a re-analysis of the deposited data

Results flagged for a closer look

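Wild-type replicate 1 of 12 mpf had the lowest share of nuclear coding reads counted to members, 46.4%, while the other 5 libraries of 12 mpf lay between 52.2% and 53.9%. Its gap to the next library was 0.778 of the whole range of the 6 libraries, above the 95% critical value of Dixon's test for that number. Of 4 such sets of 6 libraries 1 held a library this far out. Chance flags about 1 in 20 single sets, so 1 flag among 4 sets is less rare than that, and sets of the same age share their libraries.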

How the results depend on the processing

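The counts of members past the threshold are small and move with the fit. For transgenic against wild type at 4 mpf, the count of 2 became 0 with a pseudocount of 5 FPKM, with only the 6 libraries of that age, with array weights and with the replicate block, and 5 with limma voom on recovered reads. It ranged from 1 to 14 on leaving out each library, where the count over all rows ranged from 9 to 37. At 12 mpf the count of members was 0 under each alternative run. Over both ages the count of 0 became 1 with voom and ranged from 0 to 3 on leaving out a library, and for the interaction that range was 0 to 3. For 12 against 4 mpf in wild-type tissue the count of 1 became 0 with the pseudocount of 5 FPKM or array weights, 5 with the 6 libraries alone and 13 with voom, with a range of 0 to 19 on leaving out a library. In transgenic tissue the 0 became 3 with the 6 libraries alone or voom and 1 with the left-out rows put back, with a range of 0 to 3. The age contrasts could not be fitted with the block, since a block lies within 1 age.

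Of the reads in all rows with values, the members' share was 4.81 points higher at 12 than at 4 mpf, and it was 3.23 points lower (-3.23) as a share of summed FPKM. The members' share of nuclear coding reads was 8.03 points lower at 12 than at 4 mpf. Between genotypes at 12 mpf its difference of 2.15 points ranged from -0.050 to 3.33 on leaving out a library, lowest without wild-type replicate 1. The difference in members at 0 at 12 mpf ranged from 0 to 1.5. Alternatives were run for 41 differences of members, those with the smallest p for each genotype contrast and the interaction and that of angel1 between the ages in wild-type tissue, and 0 of them changed direction. As they were chosen by p in these same libraries, this does not speak for the direction of other members' differences. The causes of the changes given above were not tested.

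The replicate numbers were not taken to pair the samples. Deviations of transgenic and wild-type libraries with the same number correlated at 0.02, -0.02 and -0.01 at 4 mpf and at 0.07, -0.41 and -0.29 at 12 mpf. Deviations from means of only 3 libraries cannot decide whether samples were paired. With the replicate block the count at 4 mpf was 0. With 3 libraries a group and 1 estimate of the spread over groups that differ in it, differences at 4 mpf are the least certain.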

Other observations

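A few members contain several opposite ends. The centromere gene cenpp spans aspn, ogna, omd and ecm2, a cluster of matrix proteoglycan and matrix protein genes. Its row had 64.4, 89.8 and 83.7 FPKM in transgenic and 107, 104 and 33.5 FPKM in wild-type tissue at 12 mpf, and the groups overlapped. The aldehyde oxidase gene aox5 spans the hatching enzyme genes he1.1, he1.2 and he1.3, which are known for their role in embryos, and was listed at 12.8, 8.16 and 5.21 FPKM in transgenic and 11.4, 4.58 and 16.0 FPKM in wild-type tissue at 12 mpf.

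The paralogous lubricin rows prg4a and prg4b each lie opposite a copy of the same nuclear pore gene family, tpra and tprb. At 12 mpf prg4a had 56.3, 71.6 and 49.97 FPKM in transgenic and 76.9, 79.6 and 81.4 FPKM in wild-type tissue, with the transgenic libraries all lower and a difference of -0.43. The prg4b row had 198, 148 and 122 FPKM in transgenic and 90.2, 148 and 187 FPKM in wild-type tissue, with overlapping groups and a difference of 0.17. Neither difference passed the threshold in limma.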
